A study of Mus musculus with 59 samples.

Results

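Snrpn, Ndn, Magel2, Mkrn3, Peg12 and Ube3a belong to 1 imprinted cluster on mouse chromosome 7. Their transcripts were followed here in 59 mouse pluripotent lines, measured on Affymetrix arrays with 1 array per line. The 6 genes follow the known composition of the cluster, but they were chosen with earlier results of these data known. Each was read by its brightest probe set, by mean value, of those annotated to that gene alone. All 6 had such a probe set, out of 11807 genes that did. On the RefSeq annotation of GRCm38.p6 the genes spanned 3235.8 kb, from Ube3a (chr7:59228750-59310837) through Snrpn (chr7:59982495-60450177) to Ndn (chr7:62348277-62349928), Magel2 (chr7:62376979-62381640), Mkrn3 (chr7:62417593-62420153) and Peg12 (chr7:62461871-62464510).

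The region is the mouse counterpart of the human Prader-Willi and Angelman syndrome region. An imprinting centre at the start of Snrpn is methylated on the maternal allele, so that Snrpn, its upstream reading frame Snurf, Ndn, Magel2, Mkrn3 and Peg12 are transcribed from the paternal allele. Ube3a is read from both alleles in most cells and from the maternal allele in neurons, where an antisense transcript from the Snrpn side silences the paternal copy. The arrays measured the summed transcript of both alleles and hold no information on which allele was read.

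The lines were 4 embryonic stem cell (ESC) clones of the targeted KH2 line, 48 clones of induced pluripotent stem cells (iPSC), 1 adenovirus-made iPSC clone of fetal liver origin (Adeno-2) and 6 subclones of ESC that were derived from cloned blastocysts after nuclear transfer (NT-ESC). Starting cells for the 48 iPSC were taken from the tissues of chimeric mice made with ESC that carried an inducible Myc, Klf4, Oct4 and Sox2 cassette. Their 13 groups were 6 clones from mouse embryonic fibroblasts (MEF) of chimera 1, then hematopoietic stem cells (HSC, 4, 4 and 3 clones), granulocyte-macrophage progenitors (GMP, 4, 4 and 3) and granulocytes (3, 3 and 3) of mouse 1, mouse 2 and chimera 2, PF of mouse 1 (2) and mouse 2 (3), and TTF of chimera 2 (6). The labels do not spell out PF and TTF, and both were counted as fibroblasts here, which gave 31 blood-derived and 11 fibroblast-derived clones of 3 animals. NT-4, NT-5 and NT-6 came from Adeno-2, NT-7 from the HSC-derived iPSC-7, and NT-8 and NT-9 from the granulocyte-derived iPSC-15. All cells grew with serum and leukemia inhibitory factor on irradiated MEF feeders, which were depleted by preplating before lysis, and the sources used here give no ages for the animals. The labels give each array as a clone of its own, and p-values measure the spread between these clones. Since each animal may also have been handled together, animal and any batch cannot be told apart.

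The values were logarithms taken as base 2, with each array's mean near 0 and medians from -0.348 to -0.051, over 22626 probe sets. A value of 0 therefore lies near the middle of an array, and values of different genes were not set against each other because probes differ in brightness. The arrays of NT-7, NT-8 and NT-9 stood apart. Their mean correlation with the arrays of the 4 ESC and 48 iPSC was 0.889 to 0.940, against 0.982 to 0.993 for the other 56. All 3 lay below the other 56 in 15.2% of probe sets and above them in 18.3%. Results that rest on them are given with and without them. Of the defining markers, the mean of 13 measured pluripotency genes was 4.36 to 4.5 in ESC, 3.58 to 4.5 in iPSC and 3.94 to 4.44 in NT-ESC, whereas 11 of 17 hematopoietic genes, among them Ptprc, Spi1 and Mpo, lay below the array median in every group of lines. The origin labels name the cells before reprogramming.

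The windows upstream of the transcription starts of Snrpn and Magel2, and of Mkrn3 and Peg12, are shown because these were the 2 pairs of members whose levels moved together from clone to clone. Each is the 250 bases before the RefSeq start in GRCm38.p6, on the strand of the gene, with CpG dinucleotides in capitals. The Snrpn window (chr7:60005200-60005449, minus strand) belongs to the start that Snrpn shares with Snurf, 1 of 4 Snrpn starts in the RefSeq table. The Magel2 window was chr7:62376729-62376978 on the plus strand, the Mkrn3 window chr7:62420154-62420403 and the Peg12 window chr7:62464511-62464760, both on the minus strand.
Snrpn: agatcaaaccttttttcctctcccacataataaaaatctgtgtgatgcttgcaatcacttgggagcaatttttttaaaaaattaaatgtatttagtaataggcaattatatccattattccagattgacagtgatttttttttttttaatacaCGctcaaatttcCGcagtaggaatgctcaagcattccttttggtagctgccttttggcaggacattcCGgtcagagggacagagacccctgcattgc
Magel2: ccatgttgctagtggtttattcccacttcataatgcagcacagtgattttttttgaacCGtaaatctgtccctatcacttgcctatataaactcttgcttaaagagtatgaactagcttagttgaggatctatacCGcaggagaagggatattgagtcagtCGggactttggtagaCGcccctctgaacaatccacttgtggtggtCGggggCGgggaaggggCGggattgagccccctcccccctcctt
Mkrn3: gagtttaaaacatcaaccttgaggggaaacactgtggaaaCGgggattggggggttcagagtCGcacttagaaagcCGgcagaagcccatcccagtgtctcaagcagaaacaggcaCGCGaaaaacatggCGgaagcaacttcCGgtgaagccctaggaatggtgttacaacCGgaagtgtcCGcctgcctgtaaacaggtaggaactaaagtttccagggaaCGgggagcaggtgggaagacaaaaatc
Peg12: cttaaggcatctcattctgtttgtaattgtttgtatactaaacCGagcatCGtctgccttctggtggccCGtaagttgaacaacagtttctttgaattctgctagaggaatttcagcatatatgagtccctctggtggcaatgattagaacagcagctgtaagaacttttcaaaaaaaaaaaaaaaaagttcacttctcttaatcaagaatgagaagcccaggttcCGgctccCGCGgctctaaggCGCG
The windows held 3 CpGs for Snrpn, 7 for Magel2, 10 for Mkrn3 and 8 for Peg12, against a median of 6 over 32851 windows of the same length. Those of Ndn (chr7:62348027-62348276) and Ube3a (chr7:59228500-59228749), both on the plus strand, held 5 and 24. The Ube3a window was the most CpG-rich of the 6, with more CpGs than 88.7% of all windows and a GC content of 70.0%. The Snrpn window had the lowest GC content, 36.8%.

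All 6 members differed between the 13 origin groups of the iPSC, as did 63.7% of all genes. These groups differ in animal as well as in cell type. Fibroblast-derived clones, from PF and TTF, had more Magel2, Ndn and Snrpn transcript than blood-derived clones, and less Mkrn3 and Peg12. Of these 5 differences, only that of Magel2 was past the threshold within each of the 3 animals. The iPSC from MEF were not in this class. They had the lowest group mean for Snrpn and Magel2 and the highest for Mkrn3. The difference in Magel2 was 1.83-fold on the scale of the deposited values. Magel2, Mkrn3 and Peg12 were read by dim probe sets, at the 28.4th, 31.2nd and 37.0th percentile of all probe sets, and how far they lay above background was not tested, so the size of their folds is uncertain. ESC and the iPSC from MEF did not differ in any member beyond the threshold, and neither did granulocyte-derived and HSC-derived clones. Peg12 also differed between animals, being highest in the blood-derived clones of mouse 2. Throughout, differences were tested with limma over all 11807 genes, and a gene passed at a Benjamini-Hochberg adjusted p under 0.05.

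**Figure D1:**
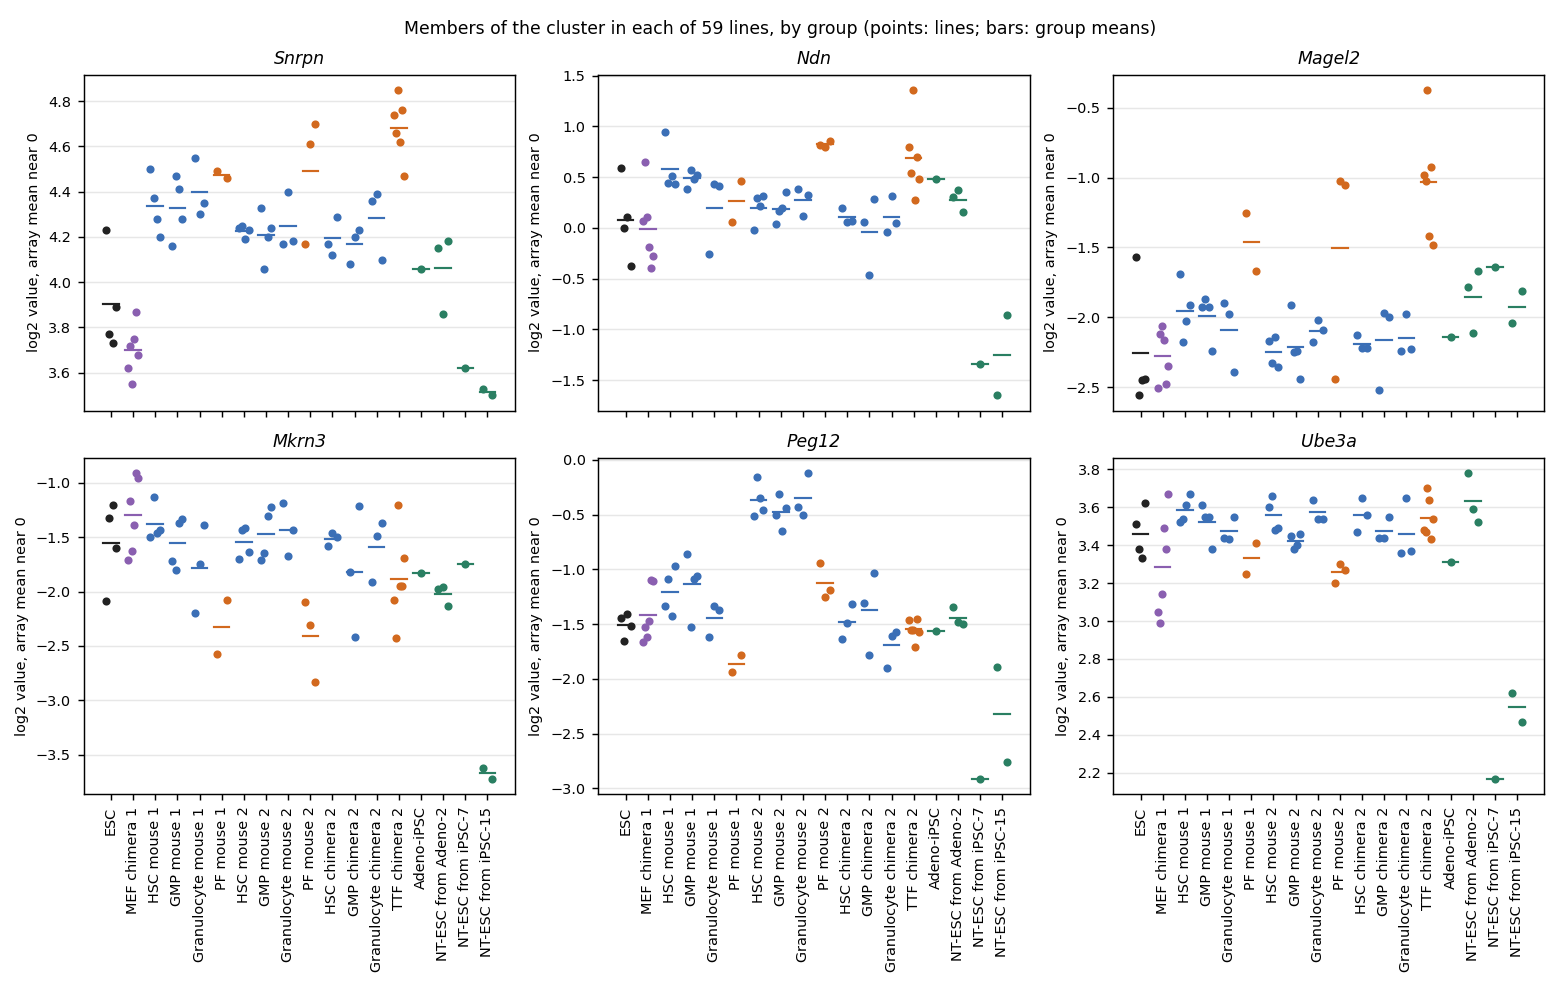
Log2 value (array mean near 0) of the brightest probe set of each of the 6 genes in all 59 lines, by origin group on the horizontal axis. Points are lines and short bars are group means; ESC are black, MEF-derived iPSC purple, blood-derived iPSC blue, fibroblast-derived iPSC orange, and the adenovirus-made clone and NT-ESC green. The vertical axes differ between panels. The orange points are high for Magel2 and low for Mkrn3, and the blood-derived groups of mouse 2 are high for Peg12.

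Over the 13 iPSC groups, 6 of 6 members passed the test of any difference, where 63.7% of all genes did. With 3 animals and 4 cell types of origin (HSC, GMP, granulocyte and fibroblast) as terms, 5 of 6 passed for cell type against 38% of all genes, the exception being Ube3a (adjusted p = 0.0617). When blood-derived clones were set against fibroblast-derived ones, 6 of 6 passed, against 49.7% of all genes. Of the 6, 3 were higher in blood-derived clones (28.1% of all genes were) and 3 lower (21.6% of all genes). Granulocyte-derived and HSC-derived clones differed in 0 of 6 members and in 0% of all genes, with 390 genes and no member at an unadjusted p under 0.05 in limma. The member with the widest gap between those 2 classes was Peg12, at -0.15 (95% interval -0.37 to 0.06, granulocyte minus HSC).

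Snrpn encodes SmN, a tissue-restricted form of the SmB protein of the splicing snRNPs, from a transcript that also carries the Snurf reading frame. In the 31 blood-derived clones its log2 value ran from 4.06 through a median of 4.24 to 4.55, and in the 11 fibroblast-derived clones from 4.17 through 4.62 to 4.85. The classes overlapped, with 7 of 11 fibroblast-derived clones above all 31 blood-derived ones. The PF clones were 4.49 and 4.46 in mouse 1 and 4.17, 4.61 and 4.70 in mouse 2, and the 6 TTF clones ran from 4.47 through 4.70 to 4.85. All 6 TTF clones were above all 9 blood-derived clones of the same animal. How many of all genes separate clones as far was not counted, here or in later statements of this kind on iPSC. Blood-derived minus fibroblast-derived was -0.33 (SE 0.05, limma adjusted p = 9.08e-07), a 1.25-fold difference. Within animals the difference was -0.13 in mouse 1 (adjusted p = 0.368; 13% of all genes passed there), -0.27 in mouse 2 (0.0269; 38.2%) and -0.47 in chimera 2 (3.38e-05; 33.6%). With the mean of the fibroblast marker list as a covariate it was -0.22 (adjusted p = 0.0934; 15.3% of all genes passed).

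The lowest Snrpn values were in the iPSC from MEF, at 3.55 to 3.87 with a median of 3.70. These 6 clones were below all 42 clones of the other 3 animals. The mean of the MEF group was 3.70 ± 0.11 (SD, n = 6) and that of the TTF group, the highest, 4.68 ± 0.13 (SD, n = 6), a range of 0.98 log2 units against a within-group SD of 0.13. Of the 12 steps between neighbours in the order of group means, 10 were smaller than that SD, and the widest, 0.47, separated the MEF group from the next. The 3 Snrpn probe sets gave differences of -0.33, -0.33 and -0.22 between blood-derived and fibroblast-derived clones, each past the threshold when every probe set was tested, as were 47.5% of all probe sets. Snurf, read by a probe set of its own, was -0.35 (SE 0.08, adjusted p = 0.000468), and it also had its lowest group mean in MEF-derived clones (2.10) and its highest in TTF-derived ones (2.96). Within animals the Snurf difference was -0.68 in chimera 2 (adjusted p = 2e-05), -0.19 in mouse 1 (0.376) and 0.02 in mouse 2 (0.929), and its dependence on the animal passed the test (adjusted p = 0.00365).

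Ndn encodes necdin, a MAGE-family protein that restrains cell cycle entry and is abundant in neurons. Its log2 value ran from -0.46 through a median of 0.29 to 0.94 in blood-derived clones, and from 0.06 through 0.70 to 1.36 in fibroblast-derived clones. Only iPSC-46, of TTF origin, lay above all 31 blood-derived clones. Blood-derived minus fibroblast-derived was -0.45 (SE 0.10, adjusted p = 0.000233), a 1.37-fold difference. In mouse 2, the 3 PF clones at 0.82, 0.80 and 0.86 were all above the 11 blood-derived clones, which ran from -0.02 through 0.22 to 0.38. In mouse 1 the 2 PF clones at 0.06 and 0.46 lay inside the range of the blood-derived clones. The difference was -0.61 in mouse 2 (adjusted p = 2.55e-05), -0.63 in chimera 2 (0.00196) and 0.18 in mouse 1 (0.563), and its dependence on the animal passed the test (adjusted p = 0.0141). All 12 steps between neighbours in the order of the 13 group means were under the within-group SD of 0.27.

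Ndn moved with fibroblast markers from clone to clone. Across the 48 iPSC, with origin group means removed, its Pearson r with the mean of 18 measured fibroblast and feeder genes was 0.70 (rho 0.69, permutation p adjusted over 18 tests = 0.00018), and 0.62 without the 2 clones farthest from the median of Ndn. Ube3a had an r of -0.57 with the same mean (rho -0.40, adjusted permutation p = 0.047 for r and 0.094 for rho), and -0.35 without its 2 farthest clones. The other 4 members did not pass. With the mean of the measured neural genes, Ndn had an r of -0.37 (rho -0.23, adjusted permutation p = 0.047 for r and 0.34 for rho). Without its 2 farthest clones that r was -0.17. With the fibroblast marker mean as a covariate, Ndn in blood-derived minus fibroblast-derived clones was 0.24 (adjusted p = 0.221), opposite in sign to the difference without it. The marker mean itself was 1.21 ± 0.30 (SD, n = 31; 0.79 to 2.12) in blood-derived and 1.94 ± 0.30 (SD, n = 11; 1.5 to 2.5) in fibroblast-derived clones, and Lum and Fap were below the array median in every line. Of its 18 genes, 16 were lower in blood-derived clones (21.6% of all genes were), led by Dcn (-1.63), Twist2 (-1.62), Timp3 (-1.48) and Prrx1 (-1.24). In bulk RNA, fewer cells of a type and less RNA per cell cannot be told apart, and the part of remaining feeder or fibroblast RNA in the Ndn values was not tested.

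Magel2 encodes a MAGE-family protein that acts with the ubiquitin ligase TRIM27 in endosomal protein recycling and is known for its role in the hypothalamus. Its log2 value ran from -2.52 through a median of -2.14 to -1.69 in the 31 blood-derived clones, and from -2.44 through -1.05 to -0.37 in the 11 fibroblast-derived clones. Of the 11, 10 lay above all 31 blood-derived clones, and the exception was iPSC-32, a PF clone of mouse 2 at -2.44. The other PF clones were -1.25 and -1.67 in mouse 1 and -1.02 and -1.05 in mouse 2. The 6 TTF clones ran from -1.48 through -1.0 to -0.37, with iPSC-46 the highest of all 59 lines. The iPSC from MEF were low, at -2.51 through -2.26 to -2.06, below every fibroblast-derived clone of the other animals but iPSC-32.

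Blood-derived minus fibroblast-derived Magel2 was -0.87 (SE 0.11, 95% interval -1.09 to -0.65, adjusted p = 1.74e-08). It passed within each animal, at -0.55 in mouse 1 (adjusted p = 0.0231), -0.69 in mouse 2 (0.0155) and -1.14 in chimera 2 (9.07e-06). Without iPSC-32, left out after its values were seen, it was -1.0 (adjusted p = 2.3e-11; 50.6% of all genes passed). Whether the size differed between animals did not pass the test (adjusted p = 0.144). With the fibroblast marker mean as covariate it was -0.67 (adjusted p = 0.0211), and the correlation of Magel2 with that mean from clone to clone was 0.17 (adjusted permutation p = 0.41). Its correlation with the mean of the pluripotency genes was -0.64 (rho -0.66, adjusted permutation p = 0.018), and -0.55 without iPSC-32 and iPSC-46. The pluripotency mean was 4.32 ± 0.10 (SD, n = 31; 4.06 to 4.44) in blood-derived and 4.08 ± 0.21 (SD, n = 11; 3.58 to 4.3) in fibroblast-derived clones, and 10 of its 13 genes were higher in blood-derived clones and none lower, with a median of 0.22. Of 9 measured mesoderm genes, 7 were lower in blood-derived clones and none higher, with list means of -2.06 ± 0.08 (SD, n = 31; -2.21 to -1.88) and -1.72 ± 0.16 (SD, n = 11; -2.01 to -1.5), and 6 of the 9 were below the array median in every line. Of all genes, 28.1% were higher and 21.6% lower in blood-derived clones. The part of differentiating cells in the Magel2 and Snrpn differences was not tested. In the order of the 13 group means, 10 of 12 steps were under the within-group SD of 0.30, and the widest, 0.45, lay between HSC of mouse 1 and PF of mouse 2.

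**Figure D2:**
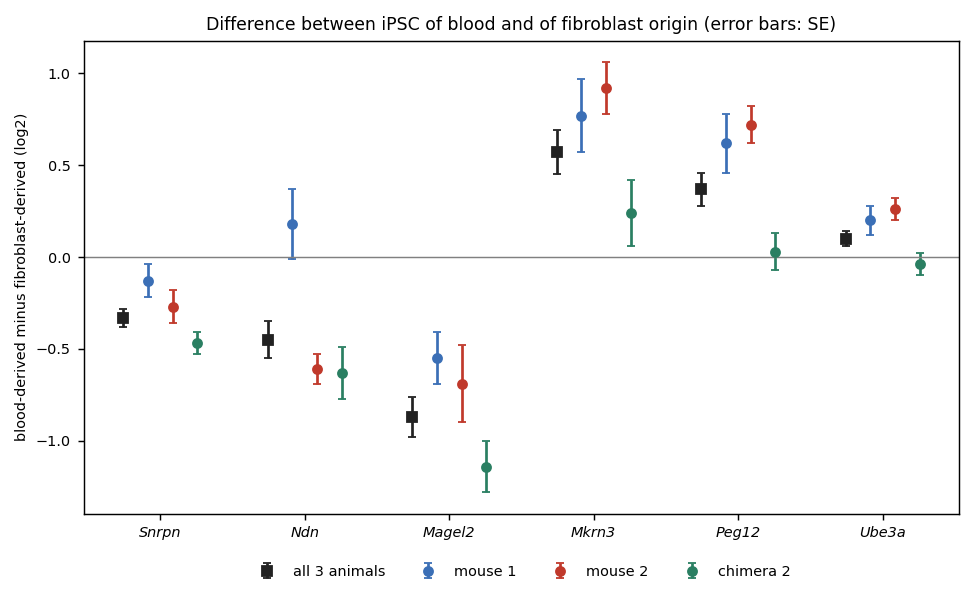
Difference in log2 value between blood-derived and fibroblast-derived iPSC for each gene, over all 3 animals (black squares, cell type and animal as terms) and within each animal (coloured points, separate fits). Error bars are standard errors from limma. All Magel2 points lie below 0, at -0.55 to -1.14, whereas the Peg12 and Ube3a points of chimera 2 lie at 0.03 and -0.04.

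Mkrn3 encodes a makorin RING-finger ubiquitin ligase that holds back the onset of puberty. Its log2 value ran from -2.42 through a median of -1.49 to -1.13 in blood-derived clones, and from -2.83 through -2.08 to -1.20 in fibroblast-derived clones. The PF clones were low, at -2.57 and -2.08 in mouse 1 and -2.10, -2.31 and -2.83 in mouse 2, and 3 fibroblast-derived clones were below all blood-derived clones. Blood-derived minus fibroblast-derived was 0.57 (SE 0.12, adjusted p = 0.000109), a 1.48-fold difference in the opposite direction to Magel2. It passed in mouse 1 (0.77, adjusted p = 0.0218) and mouse 2 (0.92, 9.45e-05) but not in chimera 2 (0.24, 0.327), where the fibroblast-derived clones are TTF. TTF origin and chimera 2 cannot be told apart, and the test of a difference between animals gave an adjusted p of 0.0855. The highest group was MEF, at -1.71 through -1.28 to -0.91, and 11 of 12 steps in the order of group means were under the within-group SD of 0.32.

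Peg12, also called Frat3, is an intronless gene of the FRAT family, whose products bind the kinase GSK3 and can activate Wnt signaling. It was the only member to pass the test of any difference between the 3 animals (1 of 6 members, 44.9% of all genes), with a range of 0.90 log2 units (adjusted p = 7.95e-11). The 11 blood-derived clones of mouse 2 ran from -0.65 through a median of -0.44 to -0.12. The 11 of mouse 1 ran from -1.62 through -1.33 to -0.86, and the 9 of chimera 2 from -1.90 through -1.57 to -1.03. The clones of mouse 2 did not overlap the other 20. How many of all genes separate these clones in the same way was not counted. In blood-derived clones alone, 55.3% of all genes passed the test between animals.

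Mouse 2 exceeded mouse 1 in Peg12 by 0.81 (SE 0.09, adjusted p = 1.18e-08; 17.1% of all genes passed) and chimera 2 by 0.90 (SE 0.09, adjusted p = 2.46e-10; 33.1%). Mouse 1 minus chimera 2 was 0.09 (adjusted p = 0.486; 34.1%). All 3 blood cell types of mouse 2 were high, with means of -0.37 for HSC, -0.47 for GMP and -0.35 for granulocytes, and the 3 PF clones of mouse 2, at -0.94, -1.25 and -1.19, lay between them and the PF clones of mouse 1, at -1.94 and -1.78. Among the 10 measured neighbours and other transcripts of the cluster, 5 differed between animals, near the share of all genes that did (44.9%). They included Atp10a, a phospholipid flippase gene next to Ube3a (range 0.77, adjusted p = 1.73e-07), Nipa2 (0.33) and Tubgcp5 (0.29). In blood-derived clones alone, Snrpn (range 0.14, adjusted p = 0.0207) and Ndn (range 0.38, 0.00359) passed the test between animals as well, where 55.3% of all genes did.

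Between blood-derived and fibroblast-derived clones Peg12 differed by 0.37 (SE 0.09, adjusted p = 0.000445). The fibroblast-derived clones ran from -1.94 through -1.55 to -0.94, and 1 of 11 was below all blood-derived clones. Within mouse 1 and within mouse 2, every fibroblast-derived clone was below every blood-derived clone, with differences of 0.62 (adjusted p = 0.0223) and 0.72 (4e-05). In chimera 2 the difference was 0.03 (adjusted p = 0.867), and the dependence on the animal passed the test (adjusted p = 0.00393; 20.7% of all genes and 3 of 6 members passed this test). Leaving out mouse 2 gave 0.21 (adjusted p = 0.0877; 36.7% of all genes passed), and the fibroblast marker mean as a covariate gave 0.33 (adjusted p = 0.164).

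Ube3a encodes the ubiquitin ligase E6AP. It had the narrowest range of group means of the 6 genes, 3.26 to 3.58, with all 12 steps between neighbours under the within-group SD of 0.13. Blood-derived clones ran from 3.36 through a median of 3.54 to 3.67 and fibroblast-derived clones from 3.20 through 3.43 to 3.70. The difference of 0.10 (SE 0.04, adjusted p = 0.0355) was 1.07-fold, without iPSC-32 it was 0.08 (adjusted p = 0.103), and with the fibroblast marker mean as a covariate 0.07 (adjusted p = 0.585). It depended on the animal (adjusted p = 0.0156), at 0.20 in mouse 1 (adjusted p = 0.0922), 0.26 in mouse 2 (0.00528) and -0.04 in chimera 2 (0.614). The 3 Ube3a probe sets disagreed, with differences of 0.10, 0.04 and -0.27, of which the first and the last passed when every probe set was tested, so the direction for the gene depends on the probe set.

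ESC were compared with the iPSC from MEF, the pair that the title of the series calls genetically matched. Snrpn was 4.23, 3.77, 3.73 and 3.89 in the 4 ESC, inside or above the range of the MEF-derived clones. Magel2 was -1.57 in ESC-1 and -2.56, -2.45 and -2.44 in the other ESC. Ndn was 0.59, 0.00, 0.11 and -0.38 in ESC-1 to ESC-4. ESC-1 was thus the highest ESC clone for Snrpn, Ndn and Magel2, and at -2.09 it was the lowest for Mkrn3, for which the others were -1.32, -1.20 and -1.60. Peg12 was -1.44, -1.65, -1.41 and -1.52, and Ube3a 3.51, 3.38, 3.33 and 3.62.

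No member differed between ESC and MEF-derived iPSC (0 of 6, and 0% of all genes), and none had an unadjusted p under 0.05 in limma, where 997 genes did. The difference, iPSC minus ESC, was -0.21 for Snrpn (95% interval -0.44 to 0.02), -0.02 for Magel2 (-0.42 to 0.37) and 0.26 for Mkrn3 (-0.19 to 0.70). These intervals leave room for differences as large as several of those between origins. Against all 48 iPSC, 0 of 6 members passed, against 4.94% of all genes (2.52% higher in iPSC and 2.41% lower). Snrpn had the smallest p, with iPSC minus ESC at 0.37 (95% interval 0.07 to 0.66, adjusted p = 0.122). It passed without the MEF-derived clones (0.45, adjusted p = 0.0017), where 19.3% of all genes did, and with equal weight for each origin group (0.38, adjusted p = 0.000125), where 25.7% did. With equal weight, Peg12 passed as well (0.32, adjusted p = 0.0176). The count of all genes past the threshold was 1112 when ESC-1 was left out, 6 for ESC-2, 5 for ESC-3 and 303 for ESC-4, and no member passed in any of these fits.

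All 6 members of the 3 NT-ESC from Adeno-2 lay inside the range of the 48 iPSC, except for Ube3a in NT-4, at 3.78 above the highest iPSC at 3.70. NT-4, NT-5 and NT-6 had Snrpn at 4.15, 3.86 and 4.18, with their donor Adeno-2 at 4.06. Their Ndn was 0.30, 0.37 and 0.16 against 0.48, and their Magel2 -1.78, -2.11 and -1.67 against -2.14. Their Mkrn3 was -1.98, -1.96 and -2.13 against -1.83, and their Peg12 -1.34, -1.48 and -1.50 against -1.56.

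In NT-7, NT-8 and NT-9, the arrays that stood apart over the whole array, most transcripts of the cluster were low. On the probe set annotated to it alone, Snurf was -2.24, -2.32 and -2.38, where the other 56 lines ran from 1.76 to 3.21. Ndn was -1.34, -1.65 and -0.86 against 0.94 in the donor iPSC-7 and -0.26 in the donor iPSC-15, and Ube3a was 2.17, 2.62 and 2.47 against 3.52 and 3.44. Neither gene overlapped the other 56 lines. Over all probe sets, the 3 arrays lay below all of those lines in 15.2% and above all of them in 18.3%. Mkrn3 was -1.75 in NT-7, inside the range of the other lines, and -3.62 and -3.72 in NT-8 and NT-9. Peg12 was -2.91, -1.89 and -2.76, with the donors at -1.33 and -1.62. Magel2, at -1.64, -2.04 and -1.81, stayed within the range of the other lines and near the donors at -1.69 and -1.90.

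The Snrpn probe sets did not move alike in these 3 arrays. Against the mean of the other 56, the brightest differed by -0.68, the next by -0.95 and the dimmest by 0.49. The probe set of Snurf alone, from the same transcript, differed by -4.84. Probe sets annotated to both Snurf and Snrpn differed by only -0.36 and -0.02, and both overlapped the other 56 lines. The Ube3a probe sets differed by -1.05, -2.57 and -0.52. What sets the 3 arrays apart was not tested. Compared with their donors, with the donor line as a block, the 6 NT-ESC differed in 0 of 6 members at the threshold, against 0.0593% of all genes (0.0169% higher and 0.0423% lower), and 3 members and 4824 of all 11807 genes had an unadjusted p under 0.05 in limma. The fitted differences were -1.02 for Ndn (SE 0.35, adjusted p = 0.0798), -0.58 for Snrpn (SE 0.22, 0.0936), -0.65 for Mkrn3 (0.0951) and 0.11 for Magel2. With only NT-4, NT-5 and NT-6 they were -0.21, 0.01, -0.19 and 0.28, from these 3 subclones and 1 donor whose spread was assumed to be that of the subclones. Against ESC, 0 of 6 members passed (0.00847% of all genes did, 0% higher and 0.00847% lower), with 1 member and 2074 of all 11807 genes at an unadjusted p under 0.05 in limma. The member was Mkrn3, at -0.98 (adjusted p = 0.275). Without the 3 arrays, Mkrn3 was -0.47.

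**Figure D3:**
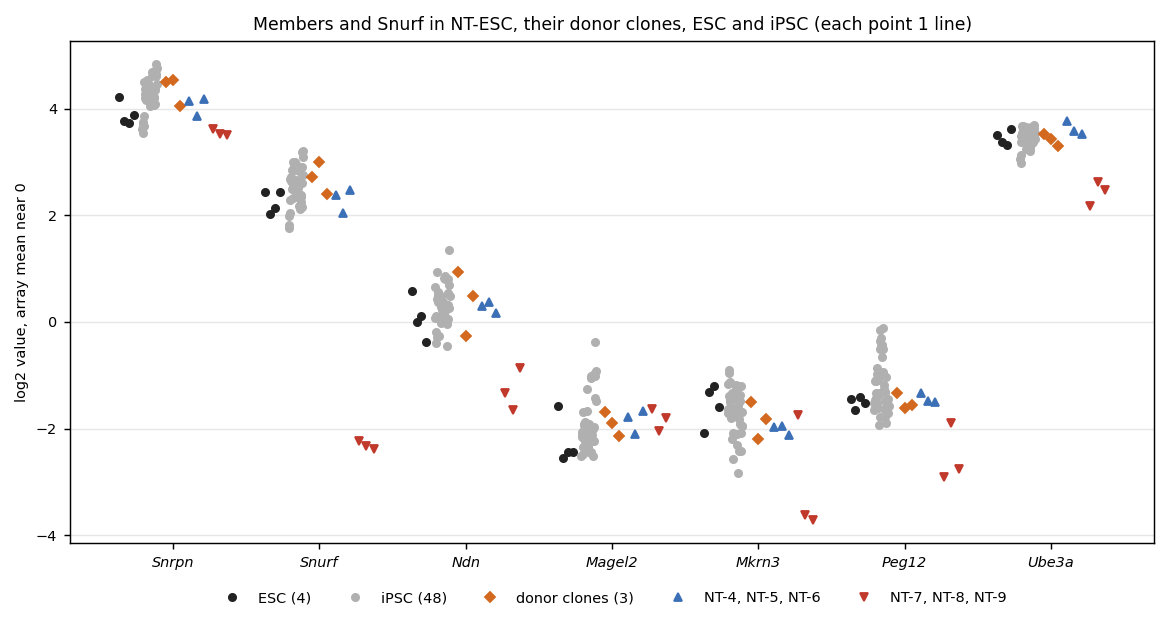
Log2 value (array mean near 0) of the 6 genes and Snurf in ESC (black), the 48 iPSC (grey), the 3 donor clones (orange diamonds, of which iPSC-7 and iPSC-15 are also among the grey points), NT-4 to NT-6 (blue triangles) and NT-7 to NT-9 (red inverted triangles). Each point is 1 line. The red points lie far below the others for Snurf, at -2.24 to -2.38, and within the grey points for Magel2.

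The members did not move as 1 unit from clone to clone. With the mean of each origin group removed, 2 of 15 pairs of members were correlated across the 48 iPSC after adjustment over the 15 pairs. Snrpn and Magel2 had an r of 0.63 (rho 0.53, adjusted permutation p = 0.009 for r), and Mkrn3 and Peg12 an r of 0.57 (rho 0.56, adjusted permutation p = 0.009). Among 6167 compared genes, Magel2 ranked 42 by r for Snrpn, and Snrpn 33 for Magel2. Peg12 ranked 162 for Mkrn3, and Mkrn3 30 for Peg12. The share of all gene pairs with an r this high was not counted. Ndn, which lies 27.1 kb from Magel2, had an r of 0.24 with it (adjusted permutation p = 0.3) and of 0.07 with Snrpn (0.68). The other 11 r values lay between -0.24 and 0.41, the highest being those of Ndn with Mkrn3 (0.41, adjusted permutation p = 0.15) and Mkrn3 with Ube3a (0.38, 0.11).

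The Snrpn and Magel2 relation rested partly on 1 clone. Without iPSC-32 and iPSC-49, the clones farthest from the median of Snrpn once group means were removed, r was 0.48. Without iPSC-32 alone it was 0.46 (adjusted permutation p = 0.052). Within the 11 fibroblast-derived clones it was 0.95 (rho 0.94, adjusted permutation p = 0.0059), and within the 31 blood-derived clones 0.43 (adjusted permutation p = 0.15). Mkrn3 and Peg12 had an r of 0.56 without iPSC-46 and iPSC-40, the clones farthest from the median of Mkrn3 in the same way. Without iPSC-32 their r was 0.55 (adjusted permutation p = 0.015). Within blood-derived clones it was 0.60 (adjusted permutation p = 0.1) and within fibroblast-derived clones 0.26 (0.55). Snrpn also correlated with the mean of the pluripotency genes (r = -0.64, rho = -0.64, adjusted permutation p = 0.0073; -0.58 without iPSC-32 and iPSC-49), as Magel2 did, and the part of that in the correlation of Snrpn with Magel2 was not tested.

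**Figure D4:**
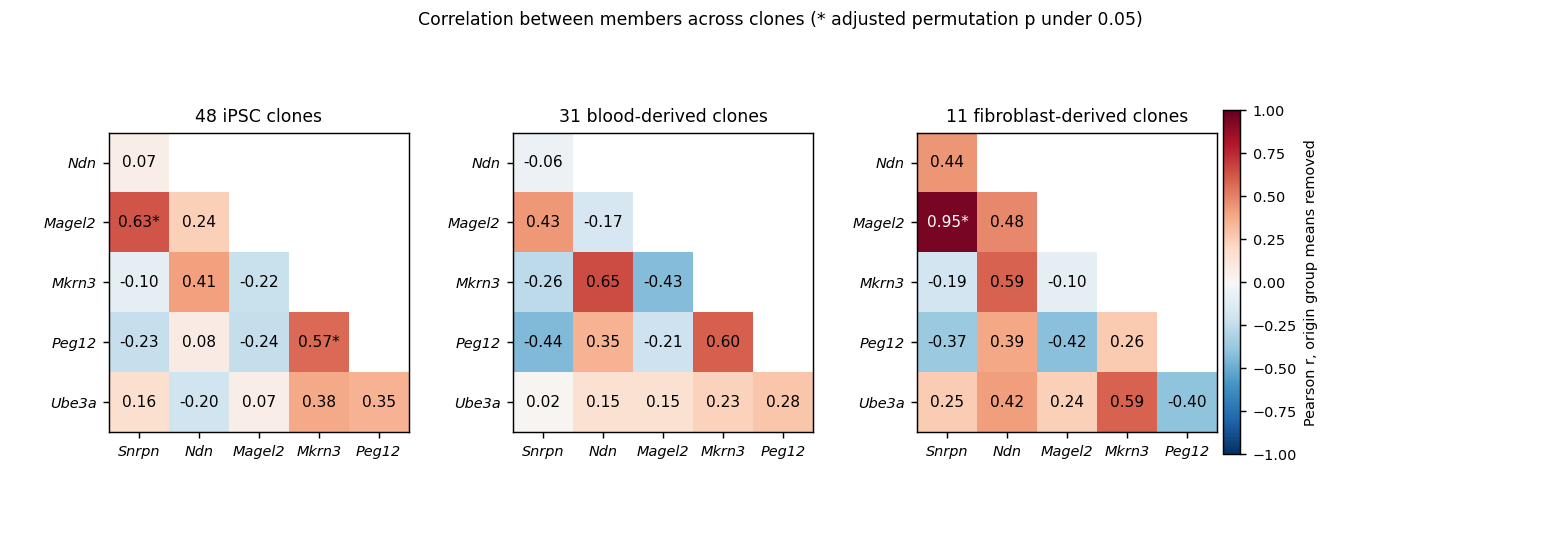
Pearson correlation between members, with the mean of each origin group removed, across 48 iPSC clones, 31 blood-derived clones and 11 fibroblast-derived clones. Colour and number give r, and an asterisk marks an adjusted permutation p under 0.05. Snrpn with Magel2 is marked in the left and right panels (0.63 and 0.95), and Mkrn3 with Peg12 in the left one (0.57).

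The genes whose pattern was most like that of each member were searched by Pearson r over the 48 iPSC, among genes with a mean above 0. Magel2, Mkrn3 and Peg12 have means below 0 and could not appear, and no other member was among the nearest. With all members included, the best-ranked was Snrpn for Magel2, at rank 12 of 6167. With origin group means removed it was Mkrn3 for Peg12, at rank 30. For Snrpn they were Rrp15, Ebna1bp2 and Pdlim7 (each r = 0.88), Mrpl12 and Lsm1 (each 0.87). For Magel2 the nearest was Tbpl1 (0.82), for Ndn Tulp4 (0.87), for Mkrn3 Ndufaf1 (0.84), for Peg12 Apod (0.85) and for Ube3a Pola1 (0.81). With origin group means removed, Tro, which encodes the MAGE-family protein trophinin, was the first for Magel2 (0.78) and among the first 5 for Snrpn (0.81). Pls3 (0.89) and Eid1 (0.86) were nearest to Ndn, Amacr (0.82) to Mkrn3, Gca (0.66) to Peg12 and Smarca5 (0.79) to Ube3a. Each r of these nearest genes is among the 5 highest of 6164 or 6165 compared genes and carries no test.

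Other genes tied to the cluster showed mixed differences between blood-derived and fibroblast-derived clones. The background was 49.7% of all genes, 28.1% higher and 21.6% lower in blood-derived clones. Of 10 measured neighbours and other transcripts, 4 passed and all were lower in blood-derived clones: the magnesium transporter gene Nipa2 (-0.45), Snurf (-0.35), Mtmr10 (-0.23) and the GABA receptor subunit gene Gabrg3 (-0.20). Atp10a (0.16, adjusted p = 0.169) and Herc2 (-0.10, 0.184) did not pass. Of 14 paternally expressed imprinted genes elsewhere, 2 were higher and 7 lower, with a median of -0.14 against 0 over all genes. The widest was the retrogene Mcts2 at -2.36, followed by Dlk1 at -0.63. Of 24 maternally expressed imprinted genes, 5 were higher and 6 lower, with the noncoding RNAs Rian (-1.37) and Meg3 (-1.35) the widest.

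Among 11 measured genes that keep or set methylation at imprinted regions, 3 were higher and 3 lower in blood-derived clones, including the zinc-finger protein gene Zfp445 (-0.36), the methyltransferase cofactor gene Dnmt3l (0.35) and Dppa3 (-0.29, adjusted p = 0.00863). Trim28, the corepressor that zinc-finger proteins bring to imprinted regions, was 0.02 (adjusted p = 0.511). Of 7 chromatin regulators with reported roles at the imprinting centre, 6 were higher, led by Rb1 (0.55) and the histone methyltransferase gene Ehmt2 (0.47). Of 13 Sm and snRNP assembly genes, 3 were higher and 3 lower, and Snrpb, which encodes the SmB protein that SmN can replace, was -0.12 (adjusted p = 0.0136). Of 15 relatives and partners of the MAGE proteins, 6 were higher, among them the necdin-bound factor gene E2f1 (0.51), and 2 lower, among them Maged2 (-0.31). Of 14 makorin, FRAT and Wnt genes, 6 were higher and none lower: Mkrn1 (0.55), Mkrn2 (0.34), Frat2 (0.33), Gsk3a (0.18), Dvl2 (0.14) and Frat1 (0.13). Of 10 Ube3a partners 1 passed, the replication helicase gene Mcm7 (0.13).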

How the data were processed

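The authors deposited 1 log2 value per probe set and line. The base of 2 and the centring of each array near 0 were inferred from the values, and the sources used here do not say how values were summarised or background-corrected, or which arrays shared a batch. Probe sets were named by the platform's gene identifiers, joined to RefSeq symbols: 18003 had 1 gene, 287 several and 4336 none, and those with several were given to no gene. Each gene was its brightest probe set. R 4.3.3 with limma 3.58.1 (lmFit, eBayes, 2-sided, Benjamini-Hochberg over 11807 genes) gave all adjusted p-values of single genes. Correlations between clones used 100000 permutations within origin groups in Python 3.11.15 with numpy 2.4.6 and pandas 2.3.3. The fits were tested on simulated data. The number of arrays limits the precision. The members and lists were chosen with earlier results of these data known. Named were the members and their probe sets, up to 6 genes past the threshold per list and comparison, 11 genes fixed by name whatever their p, and up to 5 most similar genes per member. Alternatives were quantile normalization, a filter at the 40th percentile of mean level, other probe set summaries, other eBayes settings, other terms, and leaving out clones, animals or lines.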

Additional observations from a re-analysis of the deposited data

Results flagged for a closer look

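Within origin groups of 4 to 10 lines, 42 combinations of a group and a member were searched for a single line far from the rest, and 3 were found, where chance gives about 1 in 20. Magel2 was -1.57 in ESC-1, with a gap to the nearest other ESC clone of 0.874 of the range of the 4. Ndn was 0.94 in iPSC-7, an HSC-derived clone of mouse 1 and the donor of NT-7, with a gap of 0.841 of the range. Magel2 was -2.24 in iPSC-14, a GMP-derived clone of mouse 1, with a gap of 0.849 of the range.

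The difference between blood-derived and fibroblast-derived clones depended on the animal for 3 members in limma. The adjusted p of that dependence was 0.00393 for Peg12, whose difference was 0.62 in mouse 1, 0.72 in mouse 2 and 0.03 in chimera 2. It was 0.0141 for Ndn, with 0.18, -0.61 and -0.63 in the same order, and 0.0156 for Ube3a, with 0.20, 0.26 and -0.04. The fibroblast-derived clones were PF in mouse 1 and mouse 2 and TTF in chimera 2.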

How the results depend on the processing

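Fits that left out each line in turn were made only for ESC and NT-ESC comparisons, in which no member passed with all lines. All 180 values from them stayed on the same side of the threshold, and the count of members past it stayed at 0. They put no passed call to a test. The fits without iPSC-32 are counted among the others. A change of direction was counted only where at least 1 of the 2 fits passed, so differences that did not pass may have changed sign. Of the others, 407 stayed on the same side in this sense, 11 moved a value past the threshold, 20 lost the call and 3 reversed the direction. The filter at the 40th percentile tests only Snrpn, Ndn and Ube3a, and gave 3 members in the tests of 13 groups, of 4 cell types and of blood-derived against fibroblast-derived clones, and 0 for the 3 animals. The test of 3 animals gave 2 members with the mean of probe sets and 3 in blood-derived clones alone. ESC against all iPSC gave 1 member without the MEF-derived clones and 2 with equal weight for each group. Blood-derived against fibroblast-derived gave 3 members with TTF-derived clones as the fibroblast class and 2, Magel2 and Mkrn3, with the fibroblast marker mean as covariate. Ube3a reversed to -0.04 with the mean of probe sets and to -0.04 with the TTF class, and Ndn to 0.24 with the covariate. The cause was not tested. Over all alternatives of this contrast, Magel2 kept its call in 13 of 13 (-1.14 to -0.63), Mkrn3 in 12 of 13 (0.24 to 0.85), Snrpn in 13 of 14 (-0.47 to -0.21), Ndn in 10 of 14 (-0.63 to 0.24), Peg12 in 10 of 13 (0.03 to 0.67) and Ube3a in 5 of 14 (-0.04 to 0.23). With 1 mean per animal and cell type, Ndn was -0.36 (adjusted p = 0.0605). The fits without iPSC-32 were chosen after seeing the data, and left 1 correlated pair of members in place of 2. Clone numbers 1 to 4 are shared by ESC and the MEF-derived iPSC, but the correlations of same-numbered clones were 0.062 to 0.354 and not every clone correlated best with its own number, so the numbers do not pair them. With the replicate block, 0 members and 15 genes passed, against 0 and 0 without it.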
